A study of Homo sapiens with 6 samples.

Results

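ER-associated degradation (ERAD) genes were described across the 6 arrays of a study of enzastaurin in MM.1S cells. The members were a list of 9 genes named for their place in the pathway: EDEM1, OS9, SEL1L, HERPUD1, DERL1, DERL2, SYVN1, UBE2J1 and UBE2G2. They were taken as every probe set whose array annotation gives exactly 1 gene symbol, that symbol being one of the 9. The annotation gave 17 such probe sets for 8 of the 9 genes, out of 11963 genes with a measurement, and all 8 were among the 6838 genes tested. SYVN1, which encodes the ubiquitin ligase HRD1, had no probe set with 1 symbol in the annotation used here, so its level was not analysed.

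MM.1S is an established human multiple myeloma line, a cancer of antibody-secreting plasma cells, and enzastaurin is an inhibitor of protein kinase C beta. Cells received enzastaurin or were left untreated, and RNA was taken at 3, 6 and 12 h. Each treatment and time had 1 Affymetrix array, which gave 3 arrays of enzastaurin-treated cells and 3 of untreated cells. All arrays came from the same line. The labels call the comparison cells untreated, with no mention of a vehicle, and the dose of enzastaurin is not given in the sources used here.

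ERAD removes proteins that fail to fold in the endoplasmic reticulum. Mannose trimming marks a failed glycoprotein, lectins read the mark, a membrane complex built around HRD1 and its partner SEL1L moves the chain into the cytosol, and conjugating enzymes supply the ubiquitin that sends it to the proteasome. Plasma cells secrete large amounts of immunoglobulin and rely on this route, and several of its genes are known targets of the unfolded protein response, the transcriptional programme that follows misfolding.

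The promoters of HERPUD1, EDEM1 and UBE2J1 are shown. EDEM1 and UBE2J1 were the only members that passed a test, and HERPUD1 was higher with enzastaurin at each time without passing one. Each window runs 250 bases before to 50 bases after the start of the gene in RefSeq (GRCh38.p14), 5′ to 3′ on the strand of the gene, and capitals mark matches to motifs of the unfolded protein and amino acid stress responses. HERPUD1 lies at chr16:56931892-56932191 on the plus strand, EDEM1 at chr3:5187457-5187756 on the plus strand and UBE2J1 at chr6:89352673-89352972 on the minus strand.
HERPUD1: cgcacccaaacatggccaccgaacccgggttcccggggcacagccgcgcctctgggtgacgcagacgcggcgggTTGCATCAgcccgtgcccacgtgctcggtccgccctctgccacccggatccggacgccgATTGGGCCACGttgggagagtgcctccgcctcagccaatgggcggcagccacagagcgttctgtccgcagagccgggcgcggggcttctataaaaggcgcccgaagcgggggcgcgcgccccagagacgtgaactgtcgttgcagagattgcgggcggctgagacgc
EDEM1: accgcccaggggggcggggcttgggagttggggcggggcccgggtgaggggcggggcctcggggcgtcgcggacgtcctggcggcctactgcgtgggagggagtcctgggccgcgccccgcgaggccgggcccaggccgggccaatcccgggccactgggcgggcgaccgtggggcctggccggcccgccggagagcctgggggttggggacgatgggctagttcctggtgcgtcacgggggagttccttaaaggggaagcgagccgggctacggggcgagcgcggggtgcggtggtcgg
UBE2J1: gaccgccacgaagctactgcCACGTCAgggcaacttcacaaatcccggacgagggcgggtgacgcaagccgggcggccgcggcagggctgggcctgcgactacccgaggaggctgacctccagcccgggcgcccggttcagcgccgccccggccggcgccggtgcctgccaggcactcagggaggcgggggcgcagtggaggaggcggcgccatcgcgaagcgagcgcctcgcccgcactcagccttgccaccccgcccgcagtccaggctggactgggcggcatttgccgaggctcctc

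The motifs were searched on both strands in the members with an entry in the promoter table, which were all but DERL1, SYVN1 included. The ER stress response element ERSE (CCAAT, then 9 bases, then CCACG) stood in 0.0769% of 35116 promoters, and ERSE-II (ATTGG, then 1 base, then CCACG) in 0.0541%. The unfolded protein response element (TGACGTG) stood in 1.97%, and the C/EBP-ATF composite element (TGATG, then 1 base, then AA) in 3.62%. The HERPUD1 window held an ERSE-II 106 bases before the start and a composite element on the opposite strand 168 bases before it. The UBE2J1 window held the unfolded protein response element 223 bases before the start, on the strand opposite to the gene. The other 6 windows, those of EDEM1, SEL1L, SYVN1, DERL2, OS9 and UBE2G2, held none of these letters. A match describes the letters of the window and not a bound site.

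Levels are given as MAS5 intensity, the linear brightness of a probe set in arbitrary units, and differences as the log2 ratio of enzastaurin over untreated at the same time, so that 1 is a 2-fold higher level. Levels of different probe sets are not comparable with each other. Where a gene had several probe sets, the one with the highest mean was tested. With 1 array on each side, a single time allowed no test. The arrays were tested together in 3 ways with limma, each adjusted over the 6838 genes by the Benjamini-Hochberg method: the mean ratio over 3, 6 and 12 h, the mean ratio over 6 and 12 h alone, and the slope of the ratio per doubling of hours. The 3 tests share the same arrays and are not independent of each other. The mean over 6 and 12 h is the first mean refitted without the 3 h pair. It called 247 genes, against 4 with all pairs, 0 without the 6 h pair and 0 without the 12 h pair.

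At 3, 6 and 12 h the median intensity of an array was 62.2, 67.6 and 65.5 for enzastaurin-treated cells, against 64.3, 63.3 and 63.8 for the untreated ones. Mean log2 intensity of the ribosomal RNA control probe sets was 9.99, 3.79 and 3.02 on the enzastaurin arrays, against 3.39, 11.98 and 9.29 on the untreated arrays, a difference of 6.61, -8.19 and -6.27. The step of a gene's ratio between 3 and 6 h cannot be told apart from the turn in this signal. At 6 and 12 h the signal was lower on the enzastaurin arrays, so a mean ratio over these times cannot be told apart from it either. The log2 ratio of 3′ over 5′ probe sets for ACTB, a sign of RNA integrity, was 2.004, 0.57 and 0.86 on the enzastaurin arrays, against 1.89, 1.16 and 1.60 on the untreated arrays. The same ratio for GAPDH was 0.23, -0.11 and 0.24 on the enzastaurin arrays, against 0.28, 0.23 and 0.30 on the untreated arrays. The part of these ratios in the results was not tested. All 8 plasma cell markers passed the intensity filter, with summed intensities of 16661 to 20016 with enzastaurin and 17824 to 22731 in untreated cells. None of the 8 T and NK cell markers or the 8 monocyte markers passed it. Their sums were 241 to 275 with enzastaurin against 226 to 256 in untreated cells for the T and NK markers, and 139 to 186 against 125 to 194 for the monocyte markers. Fibroblast markers summed to 258 to 326 with enzastaurin and 232 to 337 in untreated cells, with 2 of 5 past the filter, and erythroid markers to 173 to 426 and 301 to 460, with 1 of the 2 measured past it. No marker was at 0.

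EDEM1 and UBE2J1 moved in opposite directions after 3 h, and HERPUD1 was higher with enzastaurin at each time without passing a test. The EDEM1 ratio rose with time and the UBE2J1 ratio fell with time. By the mean over all 3 times neither passed. Over 6 and 12 h EDEM1 was 2.32-fold higher and UBE2J1 3.08-fold lower with enzastaurin, and both passed. The ribosomal RNA signal was lower on the enzastaurin array at both times. For these and other genes, the mean over 6 and 12 h cannot be told apart from that signal. The other 5 tested members, SEL1L, DERL1, DERL2, OS9 and UBE2G2, passed none of the 3 tests. In such bulk RNA, fewer cells of a type and less RNA per cell cannot be told apart.

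EDEM1 is the lumenal protein that speeds mannose trimming and release of misfolded glycoproteins, and it is a known target of the XBP1 branch of the unfolded protein response. Its single probe set had intensities of 962, 1862 and 2496 at 3, 6 and 12 h in enzastaurin-treated cells, against 1588, 1200 and 717 in untreated cells. The level was lower with enzastaurin at 3 h and higher at 6 and 12 h, so the arrays of the groups overlapped. The log2 ratios were -0.72, 0.63 and 1.80. Part of this widening lay in the untreated cells: the 12 h level was 2.59 times the 3 h level with enzastaurin and 0.451 times the 3 h level in untreated cells. At 12 h the size of the EDEM1 ratio was larger than that of 97.5% of the genes tested.

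The slope of the EDEM1 ratio was 1.26 ± 0.29 log2 units per doubling of hours (SE, 95% interval 0.68 to 1.84, limma adjusted p = 0.00460). Over 6 and 12 h the mean log2 ratio was 1.22 ± 0.29 (SE, 0.61 to 1.83, adjusted p = 0.0246). Over all 3 times it was 0.57 ± 0.38 (SE, -0.27 to 1.41, adjusted p = 0.980), without the 12 h pair it was -0.044, and with the ribosomal RNA signal as a covariate it was 0.23. The slope was past the threshold under every alternative run except equal medians of the kept genes, where its adjusted p was 0.159 and no gene of the 6838 was called.

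OS9 encodes a lectin that reads the trimmed mannose mark and hands the glycoprotein to SEL1L. Its tested probe set had 1393, 1540 and 1259 in enzastaurin-treated cells, against 1010, 1280 and 1537 in untreated cells. The enzastaurin arrays were higher at 3 and 6 h and lower at 12 h, with log2 ratios of 0.46, 0.27 and -0.29. A dimmer OS9 probe set had 357, 520 and 558 in enzastaurin-treated cells, against 239, 390 and 445 in untreated cells, and was higher with enzastaurin at each time. The mean log2 ratio of the tested probe set was 0.15 ± 0.25 (SE, -0.40 to 0.69, limma adjusted p = 0.999), and its slope was -0.38 ± 0.30 (SE, adjusted p = 0.701).

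**Figure D1:**
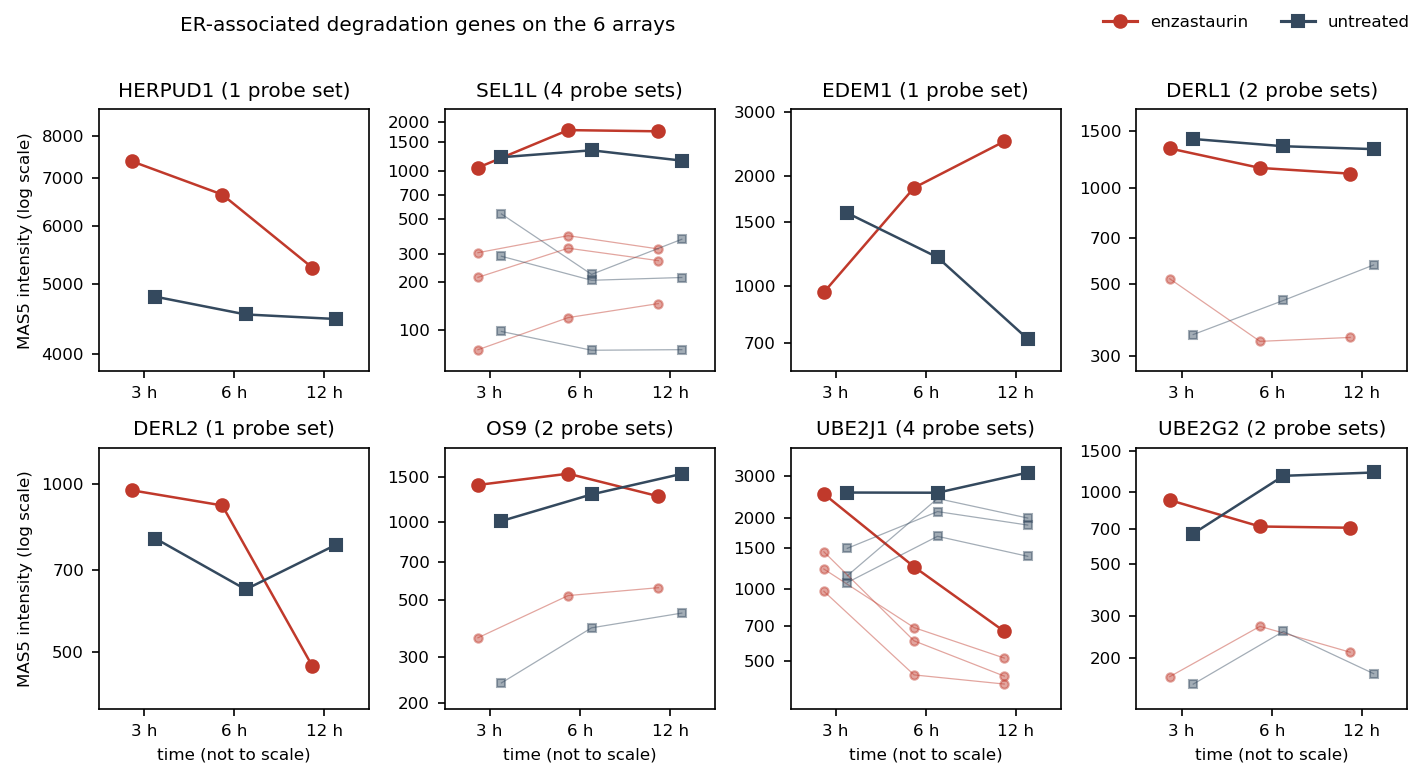
MAS5 intensity (log scale) of the 17 probe sets of 8 ERAD genes at 3, 6 and 12 h, 1 array per point, enzastaurin as red circles and untreated as dark squares; bold points are the probe set tested and pale points the other probe sets of the gene. EDEM1 crosses over after 3 h, HERPUD1 stays above the untreated arrays, and the 4 UBE2J1 probe sets fall away from the untreated arrays at 6 and 12 h.

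HERPUD1 encodes a membrane protein with a ubiquitin-like domain that helps to assemble the HRD1 complex and is strongly induced by ER stress. Its single probe set had 7371, 6634 and 5260 in enzastaurin-treated cells, against 4799, 4536 and 4471 in untreated cells. All 3 enzastaurin arrays lay above all 3 untreated arrays, and the gap narrowed with time. The log2 ratios were 0.62, 0.55 and 0.23. No other member had all its enzastaurin arrays higher, and 3.47% of all genes tested did. Its mean log2 ratio was 0.47 ± 0.14, or 1.38-fold (SE, 95% interval 0.15 to 0.78), which did not pass after adjustment (limma adjusted p = 0.535). The slope was -0.19 ± 0.17 (SE, adjusted p = 0.750), and the mean over 6 and 12 h was 0.39 ± 0.18 (SE, adjusted p = 0.307).

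SEL1L is the scaffold that steadies HRD1 and receives substrates from OS9. Its tested probe set had 1043, 1792 and 1761 in enzastaurin-treated cells, against 1212, 1339 and 1154 in untreated cells. The level was lower with enzastaurin at 3 h and higher at 6 and 12 h, with log2 ratios of -0.22, 0.42 and 0.61. Of the other 3 SEL1L probe sets, one had ratios of -0.81, 0.80 and -0.20, another had -0.44, 0.67 and 0.35, and the dimmest had -0.38, 0.68 and 0.96. All 4 were lower at 3 h and higher at 6 h, and they differed in sign at 12 h. The mean log2 ratio of the tested probe set was 0.27 ± 0.25 (SE, -0.28 to 0.82, limma adjusted p = 0.986), the slope was 0.41 ± 0.29 (SE, adjusted p = 0.655) and the mean over 6 and 12 h was 0.51 ± 0.25 (SE, adjusted p = 0.334).

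DERL1 and DERL2 encode derlins, membrane proteins that help misfolded chains to leave the ER. The tested DERL1 probe set had 1327, 1154 and 1108 in enzastaurin-treated cells, against 1420, 1348 and 1321 in untreated cells. Its log2 ratios of -0.10, -0.22 and -0.25 were small at each time, and the ranges of the groups overlapped by the 3 h enzastaurin array. The other DERL1 probe set had ratios of 0.58, -0.42 and -0.75, larger than those of the tested one and of the opposite sign at 3 h. The mean log2 ratio of the tested DERL1 probe set was -0.19 ± 0.23 (SE, -0.70 to 0.32, limma adjusted p = 0.990). The single DERL2 probe set had 973, 915 and 472 in enzastaurin-treated cells, against 798, 648 and 778 in untreated cells. Its enzastaurin arrays stood above the untreated ones at 3 and 6 h and below at 12 h, with log2 ratios of 0.29, 0.50 and -0.72. The DERL2 mean was 0.02 ± 0.31 (SE, -0.65 to 0.69, adjusted p = 0.9999), with a sign that turned under another scaling, and its slope was -0.50 ± 0.34 (SE, adjusted p = 0.628).

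UBE2J1 encodes a ubiquitin-conjugating enzyme anchored in the ER membrane that works with HRD1. Its tested probe set had 2517, 1245 and 667 in enzastaurin-treated cells, against 2552, 2547 and 3095 in untreated cells. The 3 h arrays of both groups were nearly level, and the enzastaurin arrays then stood far below the untreated ones. All 3 enzastaurin arrays were lower than all 3 untreated arrays, by a narrow margin for the 3 h array, beside 7.18% of all genes tested. The log2 ratios were -0.02, -1.03 and -2.21, and at 12 h the size of the ratio was larger than that of 99.0% of genes. In treated cells the 12 h level was 0.265 times the 3 h level, against 1.21 times in untreated cells.

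The slope of the UBE2J1 ratio was -1.10 ± 0.26 log2 units per doubling of hours (SE, 95% interval -1.62 to -0.58, limma adjusted p = 0.00722). Over 6 and 12 h the mean log2 ratio was -1.62 ± 0.28 (SE, -2.22 to -1.02, adjusted p = 0.00302). Over all 3 times it was -1.09 ± 0.34 (SE, -1.83 to -0.35, adjusted p = 0.535), without the 12 h pair it was -0.53, and with the ribosomal RNA signal as a covariate it was -0.81 (adjusted p = 0.0623). The slope lost its call under quantile normalization (adjusted p = 0.0843), with equal medians of the kept genes (adjusted p = 0.232) and with no intensity trend in the prior variance (adjusted p = 0.0887).

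The other 3 UBE2J1 probe sets were also lower with enzastaurin at 6 and 12 h. At 6 and 12 h their log2 ratios were -1.80 and -1.95, -1.80 and -2.11, and -1.93 and -1.78, while at 3 h they were 0.09, -0.05 and -0.12. Of these, the one with ratios of -0.05, -1.80 and -2.11 had 1440, 609 and 433 in enzastaurin-treated cells, against 1489, 2123 and 1864 in untreated cells. With every kept probe set tested by itself, the mean over 6 and 12 h was -1.88, -1.95 and -1.86 in the same order (limma adjusted p = 0.00148, 0.00144 and 0.00276). Their slopes were -1.02, -1.03 and -0.83 and did not pass (adjusted p = 0.0629, 0.0614 and 0.254). Probe sets of 1 gene read the same RNA on the same arrays and are not replicates.

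UBE2G2 encodes a cytosolic ubiquitin-conjugating enzyme recruited to ER ligases. Its tested probe set had 928, 718 and 709 in enzastaurin-treated cells, against 670, 1175 and 1214 in untreated cells. The enzastaurin array was above the untreated one at 3 h and below it at 6 and 12 h, with log2 ratios of 0.47, -0.71 and -0.78. Most of the shift lay in the untreated cells, where the 12 h level was 1.81 times the 3 h level, against 0.765 times with enzastaurin. The dimmer UBE2G2 probe set had ratios of 0.10, 0.07 and 0.30 and did not share the pattern. The slope of the tested probe set was -0.62 ± 0.33 (SE, limma adjusted p = 0.474) and its mean over 6 and 12 h was -0.74 ± 0.28 (SE, adjusted p = 0.179).

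**Figure D2:**
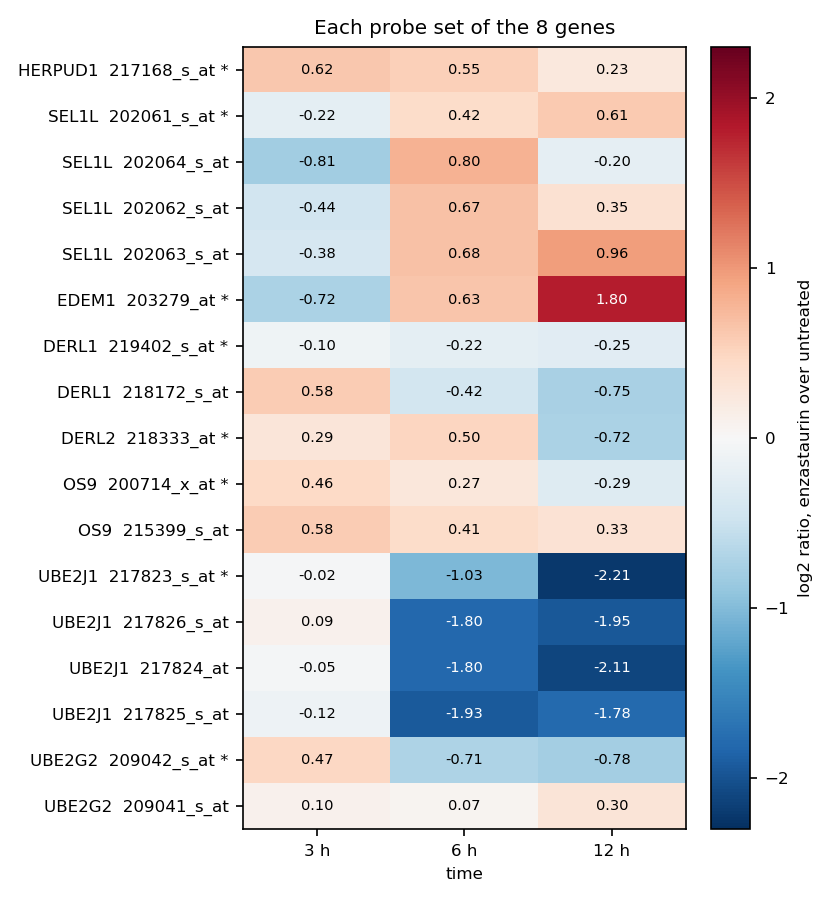
Log2 ratio of enzastaurin over untreated for each of the 17 probe sets (down the page) at 3, 6 and 12 h, red above 0 and blue below, with probe set identifiers at the left and the tested probe set of each gene starred. The 4 UBE2J1 probe sets are between -1.03 and -2.21 at 6 and 12 h and near 0 at 3 h. The probe sets of SEL1L, DERL1, OS9 and UBE2G2 differ in sign among themselves at some time.

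By the mean over all 3 times, 0 of 8 members were called by limma, and 2 of 8, HERPUD1 and UBE2J1, had an unadjusted p under 0.05. Of all 6838 genes, 4 were called, 0.0292% of them higher and 0.0292% lower with enzastaurin, and 370 had an unadjusted p under 0.05. By the slope, 2 of 8 members were called, EDEM1 upward and UBE2J1 downward, beside 0.512% of all genes upward and 0.921% downward. Over 6 and 12 h the same 2 members were called, EDEM1 higher and UBE2J1 lower, beside 1.54% of all genes higher and 2.08% lower. Fitted means were above 0 for 5 of 8 members, with a median of 0.08, against a median of -0.05 over all genes tested.

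**Figure D3:**
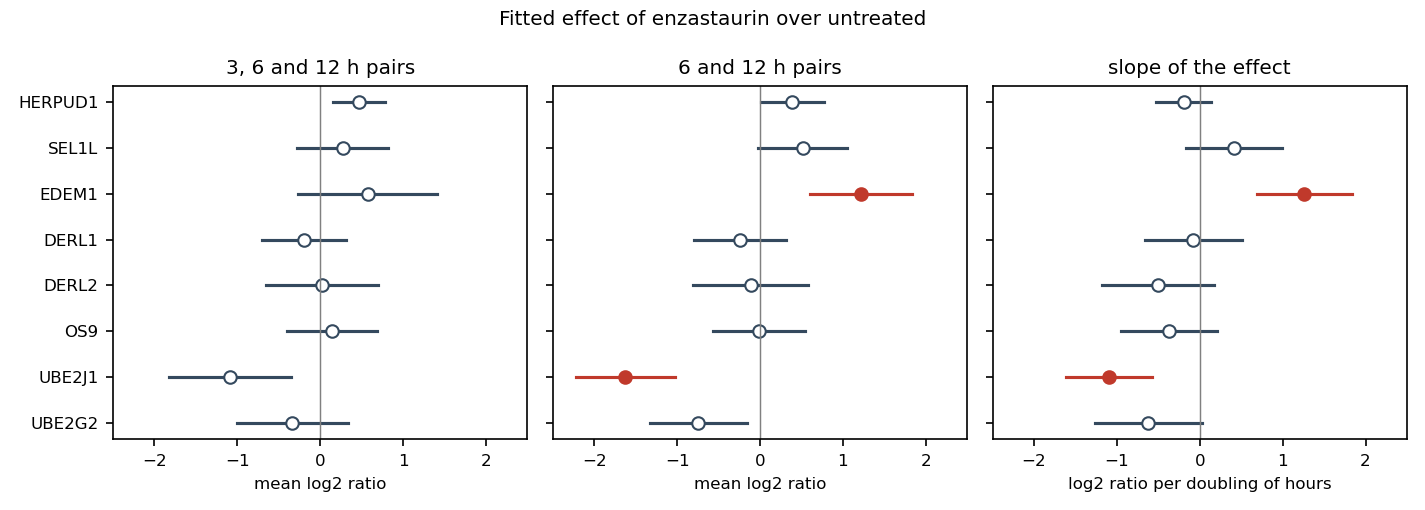
Fitted log2 effect of enzastaurin over untreated for each of 8 ERAD genes, with 95% intervals, as the mean over 3, 6 and 12 h, the mean over 6 and 12 h, and the slope per doubling of hours; filled red points have a limma adjusted p under 0.05. EDEM1 (1.22 and 1.26) and UBE2J1 (-1.62 and -1.10) are filled for the 6 and 12 h mean and for the slope, and no gene is filled for the mean over all times.

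At single times the 8 members did not move as a block. Their median log2 ratio was 0.13 at 3 h, 0.34 at 6 h and -0.27 at 12 h, against -0.04, 0.06 and -0.18 over all genes tested, and 4, 5 and 3 of the 8 were above 0. No member was 2-fold apart at 3 h, where 1.89% of all genes were past 2-fold upward with enzastaurin and 2.65% downward. At 6 h UBE2J1 alone among the 8 was at least 2-fold lower and none was 2-fold higher, beside 3.22% of all genes lower and 5.6% higher. At 12 h EDEM1 was past 2-fold upward and UBE2J1 past 2-fold downward, beside 3.88% of all genes higher and 10.4% lower. The shift of all genes at 12 h depended on the scaling. Once the kept genes were given equal medians, the members' median at 12 h was -0.08 and that of all genes 0.02. The members' median lay below that of all genes at 12 h under each scaling tried, by little with quantile normalization (-0.05 against -0.03). As deposited, 3 of the 8 members lay above the median of all genes at 12 h.

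Across the 6 arrays the 28 pairs of members had Pearson correlations of log2 intensity of -0.87 to 0.92, as a description over arrays that share treatment, time and control signal. SEL1L and UBE2J1 were the lowest pair and DERL1 and UBE2J1 the highest, and EDEM1 with UBE2J1 also gave -0.87. The genes most like EDEM1 over the 6 arrays were H3C6, WWC1, IRGQ, IFT88 and CAPN15 (r = 0.991 to 0.978), and 43 genes reached 0.95. Those most like HERPUD1 were RHOB, PLEKHO2, CDKN1A, CCL4 and ZNF165 (r = 0.975 to 0.927), and 3 genes reached 0.95. For UBE2J1, a gene chosen for this step after its values were seen, they were FAM216A, USP39, NARS2, C9orf78 and PODXL (r = 0.999 to 0.993), and 159 genes reached 0.95.

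Of 69 other genes listed for the pathway by role, 51 had a probe set with 1 symbol and 46 were tested. None was called by the mean over 3 times, 20 of 46 means were above 0 and the median was -0.06, against -0.05 over all genes tested. Over 6 and 12 h, 1 of 46 was higher (DDIT3) and 2 of 46 were lower (VCP and SDF2L1), beside 1.54% of all genes higher and 2.08% lower. By the slope, 0 of 46 were called upward and 1 of 46 downward (SDF2L1), beside 0.512% and 0.921% of all genes. These counts lie near the shares over all genes.

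VCP encodes the ATPase that pulls ubiquitinated chains out of the membrane, the step after UBE2J1. Its intensities were 1471, 904 and 612 in enzastaurin-treated cells, against 1362, 1854 and 1682 in untreated cells, and the drop was absent at 3 h. Over 6 and 12 h its mean log2 ratio was -1.25 ± 0.27 (SE, limma adjusted p = 0.0138). SDF2L1, a partner of lumenal chaperones, had 806, 250 and 173 in enzastaurin-treated cells, against 432, 572 and 578 in untreated cells. Its enzastaurin array was the higher at 3 h and the lower afterwards, with a mean over 6 and 12 h of -1.47 ± 0.33 (SE, adjusted p = 0.0171) and a slope of -1.32 ± 0.37 (SE, adjusted p = 0.0329). In the extraction group that holds VCP, 4 of 13 means were above 0 and the median was -0.20, with USP19, a deubiquitinase, the next in size at -0.45 ± 0.36 (SE, adjusted p = 0.980). The USP19 log2 ratios were -0.07, 0.11 and -1.40 at 3, 6 and 12 h. Its 12 h enzastaurin intensity was dim, at 34.3 against 90.7 in untreated cells.

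Among the 6 mannose trimming genes beside EDEM1, 4 means were above 0, the median was 0.14 and none passed. EDEM3, a paralogue of EDEM1, had log2 ratios of -0.54, -0.36 and -0.53, lower with enzastaurin at each time, unlike EDEM1 at 6 and 12 h. Its mean was -0.47 ± 0.24 (SE, limma adjusted p = 0.953), and that of MAN1C1, a Golgi mannosidase, was 0.35 ± 0.53. Of 7 membrane factors, 3 means were above 0, led by ERLIN2 at 0.40 ± 0.38 and TMEM33 at -0.27 ± 0.30. Of 4 ligases, 1 was above 0, with RNF103 at -0.59 ± 0.27 (adjusted p = 0.905) and RNF139 at 0.48 ± 0.30. Neither of the 2 other conjugating enzymes was above 0, UBE2K at -0.41 ± 0.29 and UBE2N at -0.11 ± 0.25, and neither passed. Of the 8 lumenal folding genes 3 were above 0, with a median of -0.09, and DNAJB9, a chaperone partner induced by ER stress, had 0.33 ± 0.20.

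The regulators of the unfolded protein response were the group with the highest median mean, 0.23, with 5 of 6 above 0. DDIT3, the stress factor CHOP, had 437, 148 and 357 in enzastaurin-treated cells, against 91.5, 68.5 and 92.7 in untreated cells. All 3 enzastaurin arrays were higher, and over 6 and 12 h the mean was 1.53 ± 0.37 (SE, limma adjusted p = 0.0250). Over all 3 times it was 1.77 ± 0.32 (SE, adjusted p = 0.132). ATF3, a stress factor downstream of ATF4, had a mean of 1.63 ± 0.36 (SE, adjusted p = 0.259). XBP1, whose branch is known to target EDEM1, had 5229, 6896 and 6189 in enzastaurin-treated cells, against 5604, 5010 and 5177 in untreated cells. Its mean was 0.21 ± 0.15 (SE, limma adjusted p = 0.980), and a link to the EDEM1 ratio was not tested. ATF4 had a mean of 0.26 ± 0.21 and ATF6 of -0.11 ± 0.30, and HSPA5, the chaperone BiP, had log2 ratios of 0.08, 0.32 and -0.61 with a mean of -0.07 ± 0.20. None of these 3 passed a test.

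**Figure D4:**
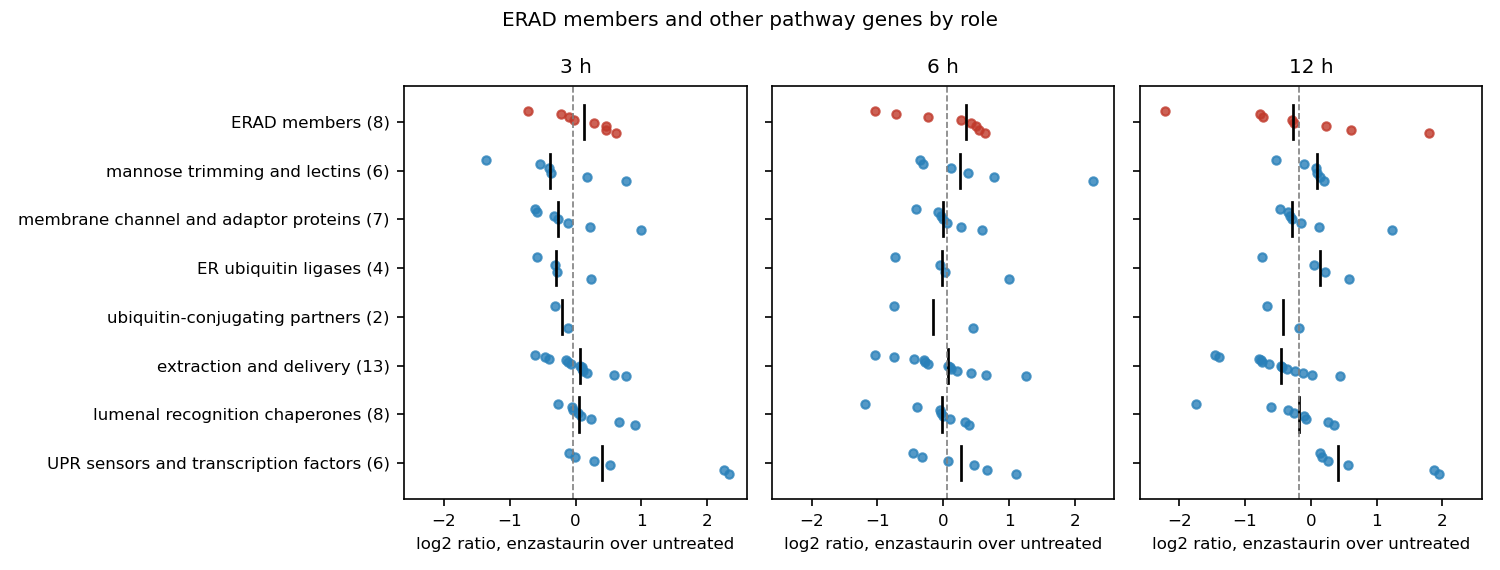
Log2 ratio of enzastaurin over untreated at 3, 6 and 12 h for the 8 ERAD members and for 46 other pathway genes in 7 role groups, 1 point per gene, with black bars for group medians and a dashed grey line for the median of all genes tested. The members' medians are 0.13, 0.34 and -0.27, and single genes such as EDEM1 at 1.80 and UBE2J1 at -2.21 at 12 h lie far from them.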

How the data were processed

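The authors deposited linear intensity values for 22277 probe sets, which MAS5 produced, per the submitters' processing notes. Its version, its scaling target and any detection calls are not given in the sources used. Biotin-labelled cRNA was made from total RNA, per the labels' protocols. Of these probe sets, 62 were controls, 19064 had 1 symbol in the array annotation, 1043 had several and 2108 were not listed. Entrez identifiers of 19058 were found in RefSeq (GRCh38.p14), used for names and promoters.

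Intensities were floored at 1 and log2 transformed, and the upper 50% of probe sets by mean (geometric mean of 63.3 or more) were kept. The probe set with the highest mean stood for each gene. Models used lmFit and eBayes (intensity trend in the prior) of limma 3.58.1 under R 4.3.3, with time as a block. The mean had 2 residual degrees of freedom and a prior of 9.26, the mean over 6 and 12 h had 1 and 16.9, and the slope had 1, with the prior estimated as infinite. A difference between times counts as error in the mean. Adjusted p under 0.05 was called. The mean over all times and the slope were tested on simulated data. The share of false calls was near the threshold for that mean and above it for the slope. The mean over 6 and 12 h was not tested in this way, so its share of false calls is not known. Nothing in the labels says that arrays came from separate cultures, so the p-values reflect only how these 6 arrays vary, which may be technical. The number of arrays limits the precision.

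Members, lists and tests were chosen with earlier results of these data known. All members and probe sets were named. In each role the 2 other genes with the largest absolute mean were named, with any past a test and HSPA5, XBP1, ATF6, DDIT3 and ATF4. The 5 genes most correlated with HERPUD1 and EDEM1 were also named. Alternatives covered the filter, scaling, floor, choice of probe set, time term, variance trend, each pair left out and a ribosomal RNA covariate.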

Additional observations from a re-analysis of the deposited data

Results flagged for a closer look

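The enzastaurin effect on 2 of the 8 members differed between times by the slope test. The slope of EDEM1 was 1.26 log2 units per doubling of hours (limma adjusted p = 0.00460), with the log2 ratio at -0.72, 0.63 and 1.80 at 3, 6 and 12 h. The slope of UBE2J1 was -1.10 (adjusted p = 0.00722), with the ratio at -0.02, -1.03 and -2.21. Each time has 1 array per treatment, and the slope rests on 1 residual degree of freedom and the variance of all genes. The ribosomal RNA control signal also differed between times, with a mean log2 intensity of 9.99, 3.79 and 3.02 on the enzastaurin arrays against 3.39, 11.98 and 9.29 on the untreated ones. The step of both genes between 3 and 6 h cannot be told apart from the turn in that signal, whose difference was 6.61, -8.19 and -6.27 at 3, 6 and 12 h. With that signal as a covariate, the mean log2 ratio over all times was 0.23 for EDEM1, against 0.57 without it. For UBE2J1 it was -0.81 with the covariate, against -1.09 without it. EDEM1 has 1 probe set, so no other probe set could be compared with it.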

How the results depend on the processing

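Of the members' values under other settings, 185 kept their direction and side of the threshold, 7 lost a call, 12 gained one and 15 turned. All 12 gains came from fits without the 3 h pair, that is, from the mean over 6 and 12 h. The mean over 3 times called 4 genes as reported, 1 with no filter, 1 with equal medians of all probe sets, 2 without the time term, 0 with no variance trend, 0 without the 6 h pair, 0 without the 12 h pair, 247 without the 3 h pair and 74 with the ribosomal RNA covariate. Settings added after seeing the data, without the 3 h pair, called 548 with equal medians of the kept genes and 317 with quantile normalization. Members called numbered 0 over 3 times and 2 without the 3 h pair, the same fit as the mean over 6 and 12 h reported above. Also without that pair, they numbered 3 with equal medians of the kept genes (HERPUD1 joined, 0.47, limma adjusted p = 0.0202) and 2 with quantile normalization. The slope called 98 genes as reported, 151 with no filter, 7 with quantile normalization, 167 with equal medians of all probe sets and 0 with those of the kept genes. It called 2 members as reported, 1 with quantile normalization, 1 with no variance trend and 0 with equal medians over kept genes.

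Directions turned for the DERL1 slope (0.018 with quantile normalization, 0.0081 with equal medians over kept genes). The DERL2 mean turned to -0.0069 with equal medians of all probe sets, -0.11 without the 3 h pair, -0.22 without the 6 h pair, and, without the 3 h pair, to -0.028 with equal medians of the kept genes, -0.07 with quantile normalization and -0.11 with every probe set. OS9 turned to -0.011 without the 3 h pair, EDEM1 to -0.044 without the 12 h pair, a SEL1L probe set to -0.067, and the dimmer UBE2G2 probe set to a mean of 0.16, a slope of 0.10 and 0.19 without the 3 h pair. The causes were not tested. The slope could not be fitted with the covariate or without a pair, since no residual degree of freedom is left.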
